A study of Mus musculus with 2 samples.

Results

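Cluster 11 is 1 of 11 groups of cells that the authors drew from dissociated mouse gastric tumors, and its profile is that of a fibroblast-like stromal population. Its members here are all 4710 genes that the authors' table lists for it, of 18319 genes named for any cluster. The tumors had grown from injected DP-DSCs, which are dysplastic stem cells of the mouse, in female NuJ mice. There was 1 cystic adenocarcinoma, taken 10 weeks after the injection, and 1 tubular adenocarcinoma, taken 13 weeks after it. Each tumor gave 1 library made on the inDrop platform, which joins single cells with barcoded beads in droplets. NuJ animals are nude mice, which lack a thymus and most T cells. The labels call the cells of both libraries tumor cells and do not separate host cells from descendants of the injected cells, nor do they give the site of injection. The table has no column for a tumor type, so the cystic and the tubular tumor cannot be told apart in any value below.

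Fibroblasts are the connective tissue cells that secrete and crosslink collagen, build elastic microfibrils and proteoglycan gels, and remodel them with proteases. They also send growth factors and chemokines to epithelium and leukocytes. In tumors such cells are called cancer-associated fibroblasts, and contractile, inflammatory and antigen-presenting states have been described in several organs.

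For each gene of a cluster the table gives a linear fold and a p-value, in ascending order of p. What each fold is relative to is not stated in the table; such folds usually set a cluster against all other cells. Every fold exceeds 1.5, so a gene without a value is one that did not reach it or was not tested, and decreases are not seen. A gene is called listed where the table gives it for a cluster, and raised where that fold reaches 2 and its p does not exceed 0.05. Since the clusters were themselves drawn from expression and cells are not replicates, the folds are a description, with no test. The sources used here state neither the depth per cell nor the number of cells, so no value has an error. How doublets, droplets with more than 1 cell, were treated is not stated there either. If each cluster was set against all other cells, the references of different clusters share cells but are not the same. Values set side by side below are therefore not to be read as levels.

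Of the 4710 listed genes 3112 were raised, which is 17.0% of all genes named, and 25.7% of all genes named were listed. The median fold over the listed genes was 3.27 and the 90th percentile 18.1, per the authors' deposited table. Folds of at least 10 were reached by 772 raised genes (4.21% of all named) and folds of at least 100 by 82 (0.448%). Clusters 6 and 9, where epithelial markers were raised, and cluster 4, where macrophage markers were, had 3713, 4871 and 3402 raised genes, and 0 of these reached a fold of 100. Such folds were no mark of cluster 11, since 27 of 897 raised genes had them in cluster 10, 19 of 333 in cluster 1 and 17 of 626 in cluster 7. The share of named genes raised was, from cluster 1 to cluster 10 in turn, 1.82%, 2.89%, 4.0%, 18.6%, 4.32%, 20.3%, 3.42%, 6.36%, 26.6% and 4.90%. The share listed was 6.34%, 9.07%, 29.9%, 31.5%, 20.6%, 36.4%, 12.1%, 26.4%, 38.9% and 18.9% in the same order. Counts of members raised or listed are to be read against these shares. Of the 3112 raised genes, 1793 (57.6%) had in cluster 11 the largest fold that the table gives them in any cluster. Over all 4710 listed genes 1956 had it there, which is 10.7% of all named genes. Genes not listed in cluster 11 cannot have it there. The raised genes were picked by their fold, so their higher share follows in part from the call. At the threshold lay Dap, at a fold of 2.002, and just outside it Fam222b, at 1.999, per the authors' deposited table.

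**Figure D1:**
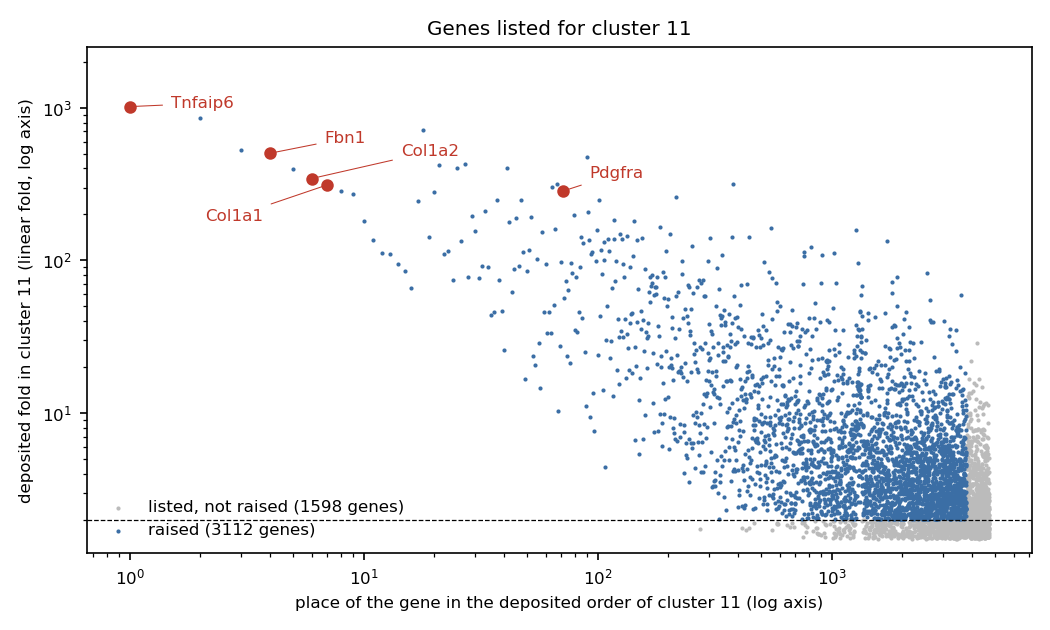
Deposited fold of the 4710 genes of cluster 11 (vertical, log axis) against their place in the table's order (horizontal, log axis), with raised genes in blue, other listed genes in grey and the dashed line at a fold of 2. The 5 genes that mark the cluster, in red, lie among the first 71 places with folds from 284 to 1017.

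The 5 genes that give the cluster its label all had very large folds there and were listed for no other cluster. The hyaluronan-binding protein Tnfaip6 stood first in the table's order at 1017, fibrillin-1 (Fbn1), the backbone of microfibrils, reached 504, and the chains of type I collagen Col1a2 and Col1a1 followed at 343 and 312, per the authors' deposited table. The receptor for platelet-derived growth factor Pdgfra, a surface marker of fibroblasts, was at 284, in place 71 of the authors' deposited table. On GRCm38, Tnfaip6 lies on chromosome 2 from 52038009 to 52056686, Fbn1 on chromosome 2 from 125300594 to 125507993, Col1a2 on chromosome 6 from 4504814 to 4541544, Col1a1 on chromosome 11 from 94936224 to 94953042 and Pdgfra on chromosome 5 from 75152292 to 75198215. These genes were part of how the cluster was described, so their values are not evidence for the name. Of the 30 genes with the largest folds 0 were listed for another cluster, and 23 belong to one of the gene lists described below. Outside the lists stood the secreted protease Prss23 at 426, the membrane protein Tmem45a at 207 and Gfpt2, which makes precursor sugars for glycans, at 182, per the authors' deposited table. The collagen-binding glycoprotein Sparc, among the first 20 genes in the table's order, was at 84.6, per the authors' deposited table.

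The wider list of fibroblast genes holds 20 genes, among them the 5 of the label, and 18 were raised. Of the other 15 members 13 were raised, with a median of 74.3 over all 15, per the authors' deposited table. Over all named genes the median lies under 1.5. The list was chosen with earlier results of these data known, so these values are a description too and no independent evidence for the name. The same list had 4 raised members in cluster 4 (background 18.6%), 1 in cluster 8 (6.36%) and none in 6 (20.3%) or 9 (26.6%). Dermatopontin (Dpt), decorin (Dcn) and lumican (Lum), proteins that bind collagen fibrils, were at 245, 142 and 81.1, per the authors' deposited table. Periostin (Postn) and the surface glycoprotein Thy1 had 74.3 and 74.0 there, per the authors' deposited table. Pi16 and Dpp4, which mark fibroblasts around vessels and in fascia, were at 109.9 and 79.7, per the authors' deposited table. The surface antigens Cd34 and Ly6c1 had 23.5 and 45.9, per the authors' deposited table.

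Some usual fibroblast genes were not listed in cluster 11, or had a fold there that was smaller than in cluster 4 or close to it. Fibroblast activation protein (Fap), a surface protease often used to mark tumor fibroblasts, had a fold of 1.61 without being raised in cluster 11, beside 9.78 in macrophage cluster 4 of the authors' deposited table. The pericyte and fibroblast receptor Pdgfrb was raised at 7.19 in cluster 11, beside 11.3 in cluster 4 of the authors' deposited table. S100a4, a calcium-binding protein once taken as specific to fibroblasts, and fibronectin (Fn1) were not listed in cluster 11 and stood at 5.31 and 5.85 in cluster 4 of the authors' deposited table. Vimentin (Vim), the intermediate filament of mesenchymal cells and leukocytes, was at 2.43 in cluster 11 and 2.29 in cluster 4 of the authors' deposited table.

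Markers of epithelium and blood cells were not listed. Those of vessels and fat were raised at shares near the 17.0% of all named genes. Lists for epithelium, macrophages and monocytes, neutrophils, T and NK cells, mast cells and red cells hold 61 genes, of which 55 are named in the table, and 0 of these 55 were listed in cluster 11. The same 16 epithelial genes had 11 raised members in cluster 6 and 11 in cluster 9, and the 12 macrophage genes had 10 in cluster 4 and 12 in cluster 8. Lists for Schwann cells and glia, and for cartilage, bone and tendon, had 0 of 4 and 0 of 7 named members listed in cluster 11. For vessel walls the list of pericytes and smooth muscle had 2 of 8 named members raised, the channel subunit Abcc9 at 34.0 and the mitochondrial protein Ndufa4l2 at 56.1, per the authors' deposited table, while Rgs5, Cspg4, Mcam, Notch3, Kcnj8 and Myh11 were not listed. Endothelium had 2 of 10, the receptor kinases Tek at 5.86 and Kdr at 3.605, per the authors' deposited table, with the junction gene Cdh5, Pecam1 and Vwf not listed. Of the 5 named adipocyte genes, the lipid carrier Fabp4 was raised at 6.40, per the authors' deposited table.

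**Figure D2:**
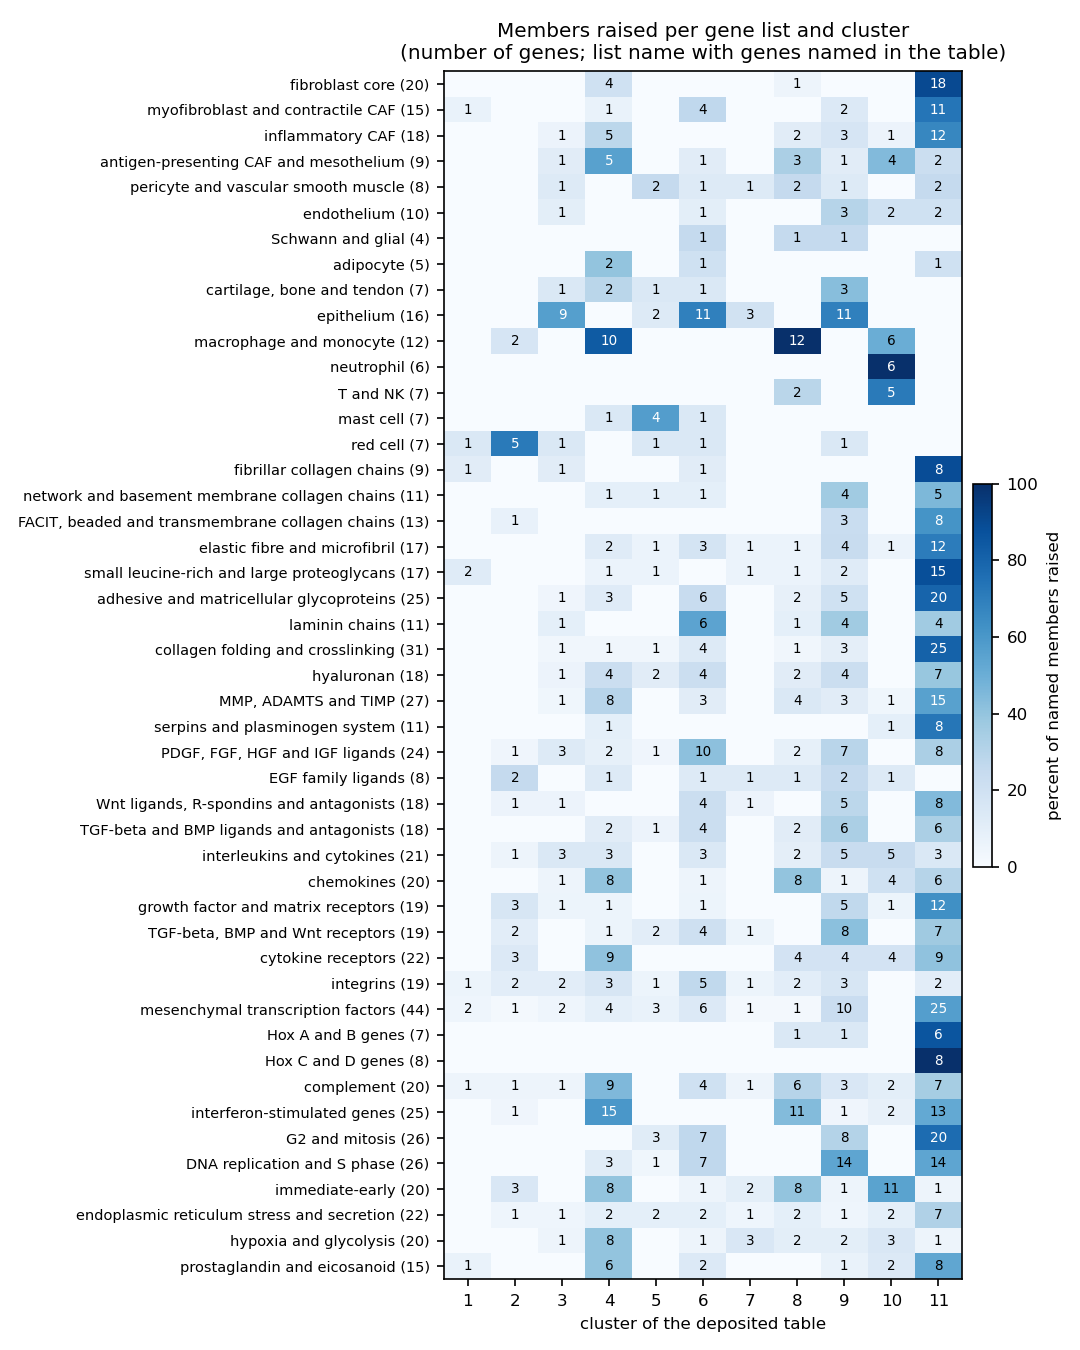
Number of raised members (figures in the cells) of each gene list in the 11 clusters, with the colour giving the percent of the members named in the table and their number in brackets after the list's name. In the column of cluster 11 the fibroblast, collagen, proteoglycan and Hox lists are dark, while the epithelial and leukocyte lists are blank.

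Contractile and inflammatory fibroblast genes were raised in the same cluster. Of 15 named myofibroblast genes 11 were raised, with a median of 23.8, per the authors' deposited table. Smooth muscle actin (Acta2), the classic myofibroblast protein, was at 199, transgelin (Tagln) at 28.4, caldesmon (Cald1) at 23.8 and the myosin light chain Myl9 at 7.95, per the authors' deposited table. The tumor stroma genes Lrrc15 and Cthrc1 were at 77.2 and 65.7, and tenascin C (Tnc) at 153, per the authors' deposited table. Tropomyosin Tpm1, integrin Itga11, Inhba and enteric actin Actg2 were not listed in cluster 11, and Actg2 was raised at 4.86 in cluster 6 of the authors' deposited table.

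Of 18 inflammatory fibroblast genes 12 were raised, with a median of 16.0, per the authors' deposited table. The chemokine Cxcl12 stood at 315, pentraxin 3 (Ptx3), a soluble pattern receptor that also crosslinks hyaluronan, at 158, tetranectin (Clec3b) at 143 and the serum amyloid Saa3 at 111, per the authors' deposited table. Interleukin 6 (Il6) and Cxcl1, often the first genes named for this state, had folds of 1.67 and 1.56 without being raised in cluster 11, beside 8.0 and 16.4 in cluster 4 of the authors' deposited table. Il11 and Lif were not listed in cluster 11 and were raised in cluster 9, at 2.29 and 4.81, per the authors' deposited table. The antigen-presenting list had 2 of 9 named members raised, Saa3 and the mesothelial transcription factor Wt1 at 28.8, per the authors' deposited table; the MHC class II genes H2-Aa, H2-Ab1, H2-Eb1 and Cd74, and mesothelin (Msln), were not listed. The table cannot show whether contractile and inflammatory genes were expressed in the same cells.

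Collagen genes were raised across most families. Of the 33 named collagen chains 21 were raised, with a median of 9.07, per the authors' deposited table, beside 7 in cluster 9, 2 in cluster 6 and 1 in cluster 4. Fibrillar chains, which form the tensile fibres, had 8 of 9 named members raised and a median of 94.7, per the authors' deposited table. The type V chains, which set the width of fibrils, were at 851 (Col5a3), 136 (Col5a2) and 94.7 (Col5a1), and Col3a1 at 66.1, per the authors' deposited table. The rarer chains Col11a1 and Col24a1 had 32.7 and 32.0, per the authors' deposited table. The fibrillar chain not listed was Col27a1, which was raised at 2.401 in cluster 6 of the authors' deposited table.

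Microfibril-forming type VI collagen followed with Col6a3 at 134, Col6a1 at 56.2 and Col6a2 at 25.8, per the authors' deposited table. The fibril-associated chains Col12a1, Col16a1 and Col14a1 were at 49.95, 25.8 and 20.7, per the authors' deposited table. Network collagens had 5 of 11 named chains raised, led by Col8a2 at 45.6 and Col4a6 at 31.2, per the authors' deposited table. Type IV collagen, the sheet of basement membranes, was divided: Col4a2 was raised at 7.69 in cluster 11, while its partner Col4a1 was not listed there and was raised at 3.09 in cluster 9 of the authors' deposited table. Col18a1, Col7a1 and Col13a1, also not listed in cluster 11, were raised in cluster 9 at 3.54, 2.34 and 9.87, per the authors' deposited table. Several raised chains are neighbours in the genome: Col3a1 and Col5a2 lie 24.6 kb apart on chromosome 1, and Col6a1 and Col6a2 lie 85.2 kb apart on chromosome 10.

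The stretch before the start of a gene holds the core promoter, and 3 of the genes that lead the cluster are shown to let their promoters be compared. Each is the 250 bases before the RefSeq start on GRCm38.p6, 5′ to 3′ on the gene's strand. Capitals mark TGANTCA, the letters bound by AP-1, in Tnfaip6, and CCAAT, the box bound by NF-Y, in the pair of collagen genes; Tnfaip6 also holds 2 CCAAT matches, 1 on each strand, left in lower case.
Tnfaip6, chr2:52037863-52038112, strand +: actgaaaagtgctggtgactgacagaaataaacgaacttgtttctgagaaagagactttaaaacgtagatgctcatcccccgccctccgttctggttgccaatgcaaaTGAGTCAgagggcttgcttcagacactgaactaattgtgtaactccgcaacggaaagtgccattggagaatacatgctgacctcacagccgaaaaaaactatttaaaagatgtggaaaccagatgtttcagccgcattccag
Col1a2, chr6:4505368-4505617, strand +: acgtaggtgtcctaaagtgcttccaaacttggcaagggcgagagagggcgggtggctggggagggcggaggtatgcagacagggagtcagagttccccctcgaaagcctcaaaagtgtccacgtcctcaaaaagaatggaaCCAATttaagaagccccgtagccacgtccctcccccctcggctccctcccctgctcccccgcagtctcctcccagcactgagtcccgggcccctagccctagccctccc
Col5a3, chr9:20815068-20815317, strand -: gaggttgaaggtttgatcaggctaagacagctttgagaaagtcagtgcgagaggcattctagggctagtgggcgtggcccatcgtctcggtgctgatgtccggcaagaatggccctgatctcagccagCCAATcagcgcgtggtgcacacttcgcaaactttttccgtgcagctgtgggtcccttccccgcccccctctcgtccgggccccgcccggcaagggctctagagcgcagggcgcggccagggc
The CCAAT boxes begin 109 bases before the start in Col1a2 and 122 in Col5a3, and the AP-1 letters begin 142 bases before it in Tnfaip6. Both motifs were searched on both strands, and no capitalised matches overlap. Neither motif is unusual among the raised genes. CCAAT was present in 6 of 17 raised collagen chains with a promoter in the table (35.3%), in 903 of 2194 raised genes (41.2%) and in 4908 of 12332 genes named for any cluster (39.8%). TGANTCA was present in 6.29% of the raised and 6.42% of the named genes.

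The enzymes and chaperones that fold, trim and crosslink collagen were raised nearly as a whole. Of 31 named members 25 were raised, with a median of 14.2, per the authors' deposited table, beside 4 in cluster 6, 3 in cluster 9 and 1 in cluster 4. Adamts2, which cuts the amino-terminal propeptide, was at 402 and its relative Adamts14 at 35.6, while Bmp1 and its enhancer Pcolce, which serve the carboxy-terminal cut, were at 27.6 and 26.9, per the authors' deposited table. The chaperones Fkbp10 and Serpinh1 (HSP47) were at 302 and 77.2, per the authors' deposited table. The lysine hydroxylase Plod2, which prepares a stable type of crosslink, was at 94.0, beside 4.86 for Plod1 and 6.13 for Plod3, per the authors' deposited table. Lysyl oxidases crosslink collagen and elastin outside the cell, and 4 of them were raised, Lox at 279, Loxl1 at 111, Loxl2 at 91.5 and Loxl3 at 60.2, per the authors' deposited table; Loxl4 was not listed. Prolyl hydroxylases of the P3h and P4ha families ranged from 5.76 (P4ha1) to 36.6 (P4ha3), per the authors' deposited table. The general folding enzymes P4hb and Ppib, which every secretory cell uses, had no raised call, P4hb with a fold of 1.77, per the authors' deposited table.

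Elastic fibre and microfibril genes had 12 of 17 members raised, with a median of 8.64, per the authors' deposited table. After Fbn1 came Mfap5 at 284, fibulin-1 (Fbln1) at 73.2, fibrillin-2 (Fbn2) at 66.6 and elastin (Eln) at 42.1, per the authors' deposited table. Emilin1, Emilin2, Ltbp3 and Ltbp4 were not listed. Among proteoglycans 15 of 17 named members were raised, from biglycan (Bgn) at 179.7 and osteoglycin (Ogn) at 149 down to perlecan (Hspg2) at 2.34, per the authors' deposited table. Versican (Vcan), the large hyaluronan-bound proteoglycan, was at 6.44 in cluster 11, 8.41 in cluster 4 and 3.45 in cluster 8 of the authors' deposited table. Dcn and Lum lie 47.0 kb apart on chromosome 10, and Ogn and asporin (Aspn, fold 18.8, per the authors' deposited table) lie 40.5 kb apart on chromosome 13.

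Adhesive and matricellular glycoproteins, which tune adhesion and growth factor supply, had 20 of 25 named members raised and a median of 15.1, per the authors' deposited table. Thrombospondin 2 (Thbs2) was at 421 and Thbs3 at 66.5, while Thbs1 was not listed and was raised at 2.64 in cluster 4 of the authors' deposited table. All 5 binding proteins of insulin-like growth factor on the list were raised, with Igfbp5 at 316, Igfbp6 at 43.3, Igfbp4 at 29.0, Igfbp3 at 10.0 and Igfbp7 at 6.93, per the authors' deposited table. The CCN proteins Ccn5 and Ccn4 were at 145 and 98.5, well above Ccn1 at 9.36 and Ccn2 at 6.66, both known as YAP targets, per the authors' deposited table.

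Laminins, the other scaffold of basement membranes, divided by chain. Of 11 chains 4 were raised in cluster 11, Lama4 at 22.8, Lamb1 at 6.61, Lamc1 at 6.31 and Lama2 at 5.06, per the authors' deposited table. Of these, Lama4 and Lama2 are chains of mesenchymal and vascular laminins. The epithelial laminin chains Lama3 and Lamb3 were not listed in cluster 11 and were raised in cluster 6 at 3.59 and 4.97, per the authors' deposited table. Lama5 was raised in clusters 3, 6 and 9, at 3.47, 2.33 and 2.89, per the authors' deposited table, and was not listed in cluster 11.

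**Figure D3:**
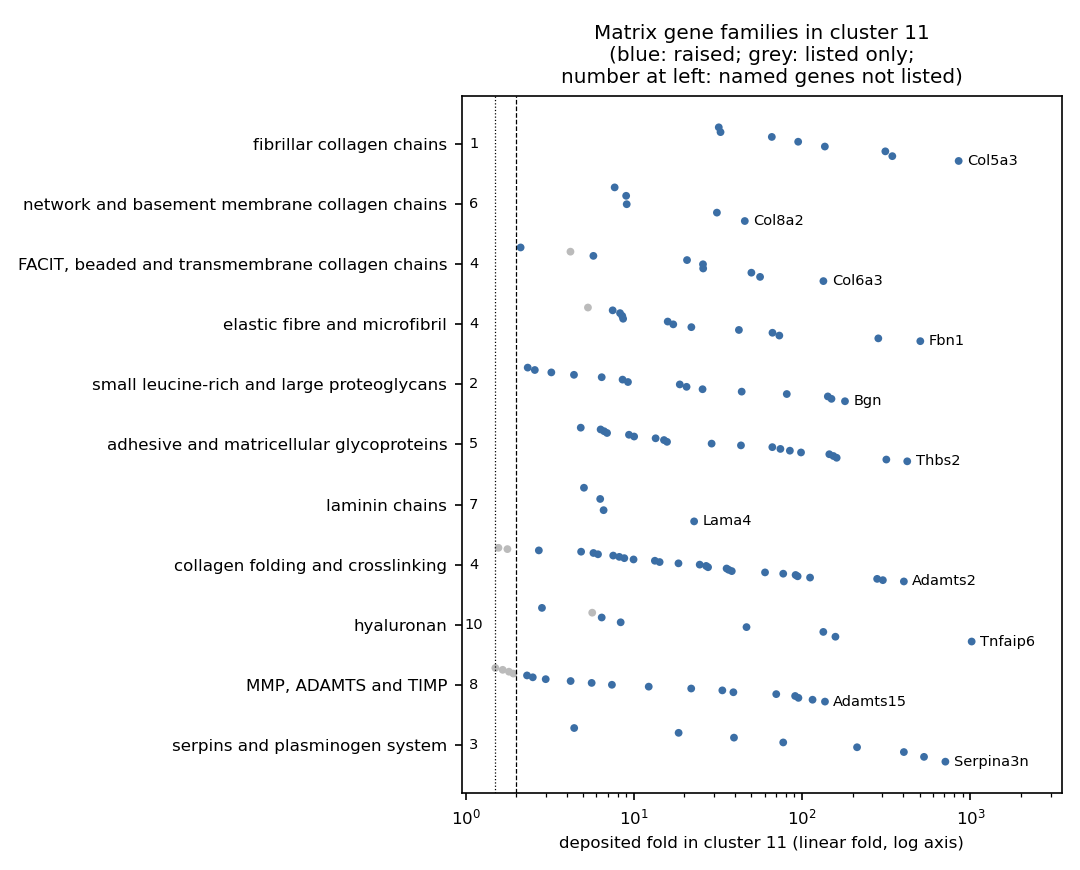
Deposited folds in cluster 11 (horizontal, log axis) of the genes of 11 matrix families (rows), 1 point per listed gene, with the gene of largest fold named, the dotted line at 1.5 and the dashed line at 2. The 8 listed fibrillar collagens lie above 30 and 1 of 9 was not listed, while 7 of 11 laminin chains and 10 of 18 hyaluronan genes were not listed.

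Hyaluronan is a large sugar polymer that swells tissue, and its genes were raised in part. Of 18 members 7 were raised. Besides Tnfaip6 and Ptx3 these included the synthase Has1 at 46.7, the hyaluronan-degrading Cemip at 134 and Ugdh, which makes the precursor sugar, at 8.35, per the authors' deposited table. Has2, the synthase usually assigned to fibroblasts, had a fold of 5.66 without being raised in cluster 11 and was raised at 9.10 in cluster 3 of the authors' deposited table. The receptors Cd44, Lyve1 and Stab1 were not listed in cluster 11; Lyve1 and Stab1 were raised at 12.3 and 6.93 in cluster 4 of the authors' deposited table.

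Matrix proteases and their inhibitors were both raised. In the MMP, ADAMTS and TIMP list 15 of 27 named members were raised, with a median of 2.51, per the authors' deposited table. Gelatinase A (Mmp2) led the MMPs at 115, and its membrane activator Mmp14 was at 2.32, per the authors' deposited table. Stromelysin (Mmp3) was at 7.41, per the authors' deposited table. The proteoglycan-cutting enzymes Adamts15, Adamts1, Adamts5 and Adamts4 were at 137, 95.05, 90.9 and 70.2, per the authors' deposited table. Timp3 and Timp1 were at 39.0 and 33.6 and Timp2 at 2.996, per the authors' deposited table. Mmp8, Mmp12 and Mmp13 were not listed in cluster 11 and were raised in cluster 8, at 10.8, 3.004 and 7.68, per the authors' deposited table.

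Serpins and the plasminogen system had 8 of 11 named members raised, with a median of 39.4, per the authors' deposited table, beside 1 in cluster 4 and 0 in clusters 6, 8 and 9. Serpina3n, an inhibitor of granzyme B and elastase, was at 709.9 and Serpinb2 (PAI-2) at 530.0, per the authors' deposited table. The plasminogen activator Plat was at 212 and its inhibitor Serpine2 at 39.4, per the authors' deposited table. The other activator Plau and its receptor Plaur were not listed in cluster 11; Plaur was raised at 5.55 in cluster 10 of the authors' deposited table. Serpina3n belongs to a family of close copies, so reads could be divided among its members by the counting.

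Some growth factor ligands were raised. Of 24 named ligands of the PDGF, FGF, HGF, IGF and vascular families 8 were raised in cluster 11 (17.0% of all named genes), 10 in cluster 6 (20.3%) and 7 in cluster 9 (26.6%). Fgf7, a fibroblast factor whose receptor lies on epithelium, was at 56.8 and was listed for no other cluster, and Igf1 was at 21.6, per the authors' deposited table. Hgf, another stromal factor for epithelium, was at 3.24 in cluster 11 and 7.68 in cluster 4 of the authors' deposited table. The lymphatic factor Vegfd was at 16.3 and Angptl4 at 20.1, per the authors' deposited table. The PDGF ligand Pdgfa was not listed in cluster 11 and was raised at 3.32 in cluster 6 and 2.76 in cluster 9, and Pdgfb at 4.76 in cluster 9, of the authors' deposited table. Of 8 named ligands of the EGF family 0 were raised, and Ereg had a fold of 2.44 without being raised, per the authors' deposited table. Ligand and receptor were measured as RNA in different cells, and no interaction was measured.

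In the Wnt pathway, secreted antagonists had the largest values. Of 18 named members 8 were raised: Sfrp2 at 473, Sfrp1 at 70.5 and Sfrp4 at 61.7 headed the list, per the authors' deposited table. The ligands Wnt9a, Wnt16 and Wnt5a were at 28.5, 5.85 and 4.34, per the authors' deposited table, and Wnt5a was at 15.3 in cluster 6. Rspo2 and Rspo3, which sustain stem cell niches, and Wnt2 and Wnt2b were not listed. In the TGF-beta and BMP family 6 of 18 named members were raised. Follistatin-like 1 (Fstl1) was at 273, Bmp7 at 98.2, Fstl3 at 16.1 and Tgfb2 at 4.09, per the authors' deposited table. Tgfb1 had a fold of 2.14 without being raised in cluster 11 and was raised at 4.52 in cluster 4 of the authors' deposited table. Bmp2 and Bmp4 were not listed in cluster 11 and were raised in cluster 6, at 4.43 and 2.49, per the authors' deposited table.

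Chemokines of cluster 11 were partly other than those of the myeloid clusters. Of 20 named chemokines 6 were raised in cluster 11, where 17.0% of all named genes were, 8 in cluster 4 (18.6%) and 8 in cluster 8 (6.36%). Cxcl12, the ligand of Cxcr4, the eosinophil attractant Ccl11 at 137 and the neutrophil attractant Cxcl5 at 137 were listed for no other cluster of the authors' deposited table. Cxcl14 was at 34.0, per the authors' deposited table. The monocyte attractants Ccl2 and Ccl7 were raised in both kinds of cell, Ccl2 at 3.89 and Ccl7 at 7.06, with 9.92 and 7.96 for cluster 4 of the authors' deposited table. Ccl2, Ccl7 and Ccl11 adjoin on chromosome 11, with gaps of 8.26 kb and 10.3 kb. Of 21 named interleukins and other cytokines 3 were raised (14.3%), no more than the 17.0% of all named genes. These were the alarmins Tslp at 21.9 and Il33 at 8.10 and the macrophage factor Csf1 at 3.80, per the authors' deposited table. Il33 was also raised in epithelial clusters 6 and 9, at 5.84 and 7.37, per the authors' deposited table.

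The complement list had 7 of 20 named members raised in cluster 11 and 9 in cluster 4, with different genes leading. In cluster 11 these were the classical proteases C1s1 at 249 and C1ra at 117, their inhibitor Serping1 at 402, C3 at 20.2, factor B (Cfb) at 9.69, C4b at 4.49 and the decay factor Cd55 at 22.3, per the authors' deposited table. The recognition chains C1qa, C1qb and C1qc, which dock to those proteases, were not listed in cluster 11 and had folds of 2.63, 4.30 and 7.47 in cluster 4 of the authors' deposited table. C1ra and C1s1 lie 6.90 kb apart on chromosome 6. Their close copies C1rb and C1s2 were raised too, at 77.3 and 41.5, per the authors' deposited table, and reads could be shared between copies.

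Receptors for matrix and growth factors had 12 of 19 members raised, with a median of 2.91, per the authors' deposited table. The collagen receptor Ddr2 was at 100.1 and the collagen-uptake receptor Mrc2 at 50.2, both listed for no other cluster, and Fgfr1 at 24.6, per the authors' deposited table. The epithelial counterparts Ddr1 and Fgfr2 were not listed. Of 19 receptors for TGF-beta, BMP and Wnt 7 were raised, led by betaglycan (Tgfbr3) at 193, with Bmpr1b at 35.3, Lgr5 at 10.2 and Tgfbr2 at 7.57, per the authors' deposited table. Lgr5, best known as a stem cell marker of epithelium, had a fold of 3.501 in cluster 5 and 1.89 in cluster 6 without being raised there, per the authors' deposited table. Cytokine receptors had 9 of 22 raised, among them the IL-33 receptor Il1rl1 at 181, the oncostatin receptor Osmr at 87.9, the scavenger Ackr3 of Cxcl12 at 34.9 and Il1r1 at 11.7, per the authors' deposited table. Of 19 named integrin chains 2 were raised, near the 17.0% of all named genes: Itgb8 at 22.9 and the fibronectin receptor chain Itga5 at 2.50, per the authors' deposited table.

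Transcription factors of mesenchyme were raised broadly. Of 44 named members 25 were raised, with a median of 3.04, per the authors' deposited table, beside 10 in cluster 9 and 6 in cluster 6. The EBF factors Ebf2, Ebf3 and Ebf1 were at 162, 69.3 and 16.8, per the authors' deposited table. Prrx1, Osr1, Osr2, Tbx15, Twist2 and Meox2, factors of limb, trunk and dermal mesenchyme, lay between 37.8 (Meox2) and 62.1 (Prrx1), per the authors' deposited table. The transition factors Snai1 and Twist1 were at 28.3 and 24.1, far above Zeb1 at 3.14 and Snai2 at 2.74, per the authors' deposited table. Zeb2 was not listed in cluster 11 and was raised at 8.27 in cluster 4 of the authors' deposited table. The Hedgehog effectors Gli3, Gli2 and Gli1 were at 17.4, 7.49 and 2.91, per the authors' deposited table. Creb3l1, which drives the secretory load of collagen-making cells, was at 6.61, per the authors' deposited table. Foxf2 and Meox1, also mesenchymal, were not listed in cluster 11 and were raised in cluster 9, at 3.95 and 4.09, per the authors' deposited table.

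Hox genes, which keep a record of position along the body axis in adult fibroblasts, were mostly listed for this cluster. Some of them were listed for other clusters too. Of the 39 mouse Hox genes 15 are named in the table for any cluster, and 14 of these were raised in cluster 11, with a median of 12.7, per the authors' deposited table. Over clusters 4, 6, 8 and 9 the counts of raised Hox genes were 0, 0, 1 and 1. The counts of listed ones were 0, 1, 1 and 2, and cluster 3 had 1 listed. Of the C group 6 were raised, from Hoxc4 at 3.90 through Hoxc9 at 11.3, Hoxc6 at 27.3, Hoxc5 at 32.1 and Hoxc8 at 48.0 to Hoxc10 at 139.6, per the authors' deposited table. The D group had Hoxd8 at 141 and Hoxd4 at 13.1, per the authors' deposited table. The B group had Hoxb2 at 66.6, Hoxb6 at 6.43 and Hoxb7 at 5.93, and the A group Hoxa5 at 12.7 and Hoxa9 at 6.88, per the authors' deposited table. Across the groups the raised genes had paralog numbers up to 10, and 0 genes with numbers 11 to 13, those of the tail end and the limb tips, were listed. Hoxb4 was named for cluster 8 alone, at 59.5, per the authors' deposited table. Barx1, the factor of stomach mesenchyme, was not analysed here. The annotated span of Hoxc5 covers Hoxc6, Hoxc8 and Hoxc9 and part of Hoxc10, that of Hoxa3 covers Hoxa5, and those of Hoxd3 and Hoxd4 overlap, so the separate values of all these genes are uncertain.

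**Figure D4:**
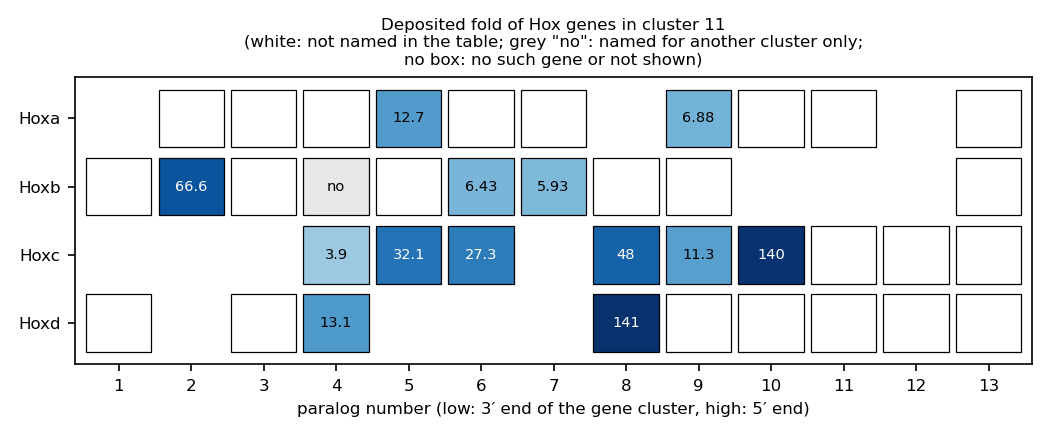
Deposited fold of each Hox gene in cluster 11, by group (rows) and paralog number (horizontal), with darker blue for larger fold, white boxes for genes with no value for any cluster and grey for Hoxb4, named for another cluster only. Filled boxes reach paralog 10, 1 gene is not shown, and the largest values are Hoxd8 at 141 and Hoxc10 at 139.6.

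Interferon-stimulated genes, which cells switch on in response to interferon, were raised in cluster 11 and in the myeloid clusters, with different genes at the top. Of 25 named members 13 were raised in cluster 11, against 17.0% of all named genes, with a median of 2.11, per the authors' deposited table. Myeloid cluster 4 had 15 raised (18.6% of all named genes), myeloid cluster 8 had 11 (6.36%), cluster 9 had 1 (26.6%) and cluster 6 had 0 (20.3%). The antiviral RNA-binding genes Ifit3 and Ifit3b were at 83.3 and 39.6 and Ifit1 at 11.8, per the authors' deposited table. Ifit3 was listed for no other cluster. The RNA sensors Ifih1 and Ddx58 were at 9.55 and 4.78 and the signal carriers Stat2 and Irf9 at 7.86 and 2.96, per the authors' deposited table. Irf7, Oasl1, Ifit2, Gbp2 and Gbp3 were not listed in cluster 11, and Irf7 was raised in cluster 8. Ifit3 and Ifit3b are near copies 19.2 kb apart on chromosome 19, so their separate values are uncertain.

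The promoters of Ifit3 and Ifit1 are shown because they carry the letters to which interferon-activated factors bind. Capitals mark GAAA, then any 2 bases, then GAAA, searched on both strands and found in both genes on the opposite strand, where it reads TTTC first.
Ifit3, chr19:34583279-34583528, strand +: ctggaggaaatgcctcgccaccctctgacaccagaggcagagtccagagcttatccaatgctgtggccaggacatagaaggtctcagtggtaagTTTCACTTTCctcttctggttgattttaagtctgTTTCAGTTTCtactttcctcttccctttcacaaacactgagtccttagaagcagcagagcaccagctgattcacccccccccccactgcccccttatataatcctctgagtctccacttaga
Ifit1, chr19:34640639-34640888, strand +: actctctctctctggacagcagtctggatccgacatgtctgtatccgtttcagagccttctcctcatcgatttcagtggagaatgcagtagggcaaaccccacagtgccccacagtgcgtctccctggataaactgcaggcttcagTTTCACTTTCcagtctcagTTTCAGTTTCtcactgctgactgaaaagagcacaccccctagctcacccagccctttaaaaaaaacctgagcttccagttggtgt
Ifit3 also holds 1 CCAAT and 1 TGANTCA match, left in lower case. Each promoter holds 2 capitalised matches, which begin 156 and 122 bases before the start in Ifit3 and 104 and 85 bases before it in Ifit1. The motif was present in 6 of the 10 raised interferon genes with a promoter in the RefSeq table (60.0%), in 3.69% of all raised genes of cluster 11 and in 3.37% of genes named for any cluster. A match describes letters and does not show binding.

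Cell-division genes were raised in cluster 11 as well. Of 26 genes of G2 and mitosis 20 were raised, with a median of 5.45, per the authors' deposited table, beside 8 in cluster 9, 7 in cluster 6 and 0 in each of clusters 4 and 8. The DNA-untangling enzyme Top2a was at 43.1, the cytokinesis protein anillin (Anln) at 23.5, survivin (Birc5) at 18.2, Prc1 and the checkpoint kinase Bub1 at 17.2 each and the mitotic kinase Cdk1 at 15.3, per the authors' deposited table. Mki67, the usual proliferation marker, had a fold of 2.30 in cluster 11, the smallest of the 20 raised members. It was raised at 4.70 in cluster 6 and 2.89 in cluster 9 of the authors' deposited table. The cyclin Ccnb2, Cdc20, Kif20b and Hmmr were not listed in cluster 11. Genes of DNA replication had 14 of 26 raised in cluster 11 and 14 of 26 in cluster 9. Uhrf1, which maintains DNA methylation, was at 15.3, DNA ligase Lig1 at 9.34, E2f1 at 8.83 and thymidylate synthase (Tyms) at 7.83, per the authors' deposited table. The replication clamp Pcna was not listed. The table gives no phase per cell, so how many cells of the cluster were dividing was not measured.

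The promoters of Top2a and Cdk1 are shown for their CCAAT boxes, marked in capitals; on the opposite strand the box reads ATTGG.
Top2a, chr11:99024190-99024439, strand -: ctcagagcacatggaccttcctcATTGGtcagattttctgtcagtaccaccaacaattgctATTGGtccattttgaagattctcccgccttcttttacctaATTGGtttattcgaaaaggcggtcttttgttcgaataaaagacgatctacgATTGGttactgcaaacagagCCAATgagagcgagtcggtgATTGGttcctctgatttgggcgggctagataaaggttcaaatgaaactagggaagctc
Cdk1, chr10:69352913-69353162, strand -: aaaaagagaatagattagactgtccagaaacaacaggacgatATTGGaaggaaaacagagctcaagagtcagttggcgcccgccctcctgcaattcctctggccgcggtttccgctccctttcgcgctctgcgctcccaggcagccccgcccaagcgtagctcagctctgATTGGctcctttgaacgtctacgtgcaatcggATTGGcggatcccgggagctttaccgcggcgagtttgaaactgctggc
Top2a holds 6 matches in 250 bases and Cdk1 holds 3. CCAAT was present in 12 of 17 raised genes of G2 and mitosis (70.6%) and 8 of 13 of DNA replication (61.5%), against the 39.8% of all genes named in the table and the 35.3% of raised collagen chains given above. These shares describe small sets.

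**Figure D5:**
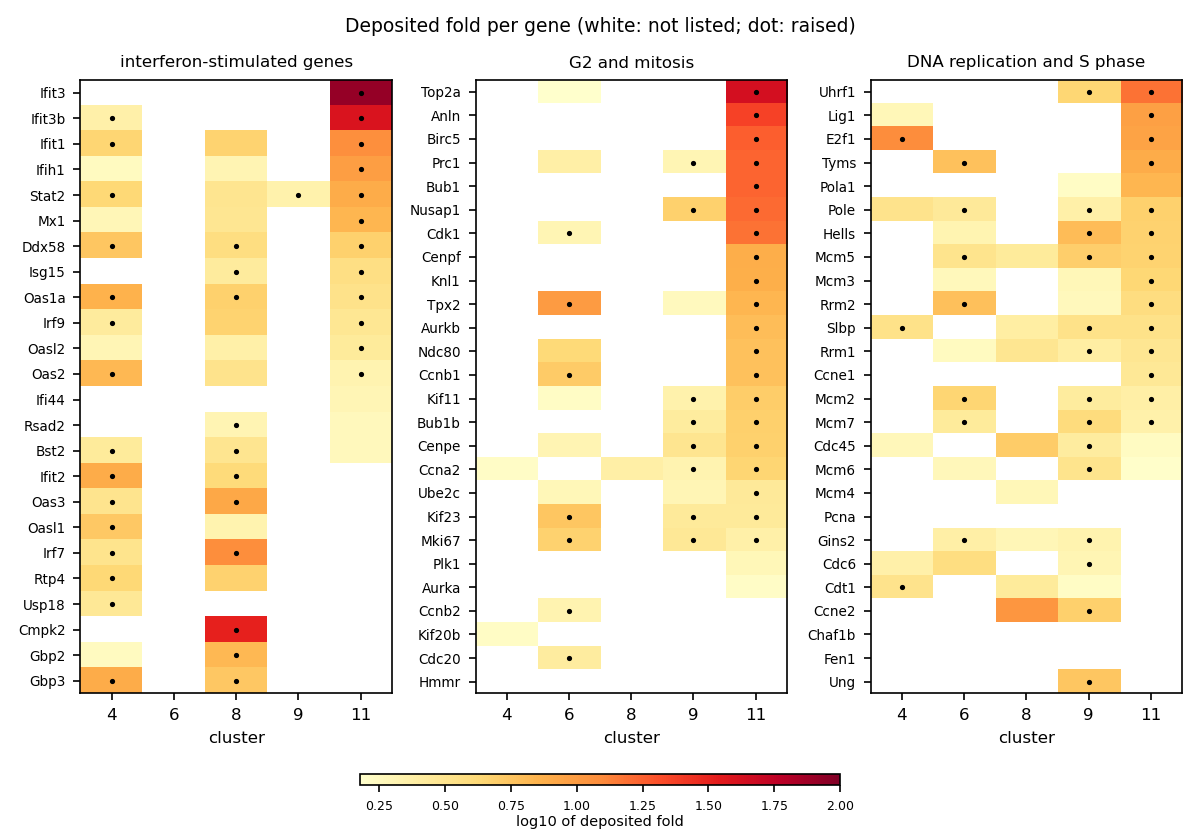
Deposited fold (colour, log10 of the fold) of interferon, mitosis and replication genes (rows) in clusters 4, 6, 8, 9 and 11 (columns), white where a gene was not listed and dotted where it was raised; 1 interferon gene is not shown. The interferon genes have dots in clusters 4, 8 and 11, the mitosis genes mostly in cluster 11, and the replication genes about equally in 9 and 11.

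Immediate-early and hypoxia genes were mostly not listed. Of 20 immediate-early genes, which respond quickly to stimulation and to tissue dissociation, 1 was raised in cluster 11, Egr3 at 3.68, per the authors' deposited table, while 8 were raised in cluster 4, 8 in cluster 8 and 11 in cluster 10. Of 20 named genes of hypoxia and glycolysis 1 was raised, the vasodilator adrenomedullin (Adm) at 4.02, per the authors' deposited table, beside 8 in cluster 4. For endoplasmic reticulum secretion and stress 7 of 22 were raised and 11 listed, against 17.0% and 25.7% of all named genes. Among them were the receptor Kdelr3 at 29.4 and the coat protein Sec24d at 9.35, and lumenal proteins such as Pdia4 at 3.87 and Calr at 3.596, per the authors' deposited table. The stress-induced genes Ddit3, Trib3, Xbp1 and Herpud1 were not listed. In the eicosanoid list 8 of 15 named members were raised in cluster 11 and 6 in cluster 4, against 17.0% and 18.6% of all named genes. In cluster 11 prostacyclin synthase (Ptgis) was at 155, the prostaglandin receptors Ptgfr at 24.3 and Ptgir at 11.9 and the prostaglandin E synthase Ptges at 9.62, per the authors' deposited table. Cyclooxygenase 1 (Ptgs1) was at 2.76 in cluster 11 and 19.4 in cluster 4, and cyclooxygenase 2 (Ptgs2) was not listed in cluster 11 and was raised at 7.03 in cluster 10 of the authors' deposited table.

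By gene type, 2638 of the raised genes were protein-coding, 18.7% of the protein-coding genes named, and 144 were annotated as antisense transcripts, 14.8% of those named. Some of the antisense genes lie high in the list across from a fibroblast gene. Gm32569, opposite Dpt, had a fold of 190.6, and Gm16897, opposite Cd34, one of 46.8, per the authors' deposited table. Of 130 raised antisense genes that overlap a named protein-coding gene on the other strand, 60 (46.2%) overlapped a raised one, against 102 of 726 (14.05%) of the antisense genes that were not raised. No source used here says whether the counting used the strand, so reads of such pairs cannot be told apart.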

How the data were processed

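Per the labels' protocols, cells of 1 cystic and 1 tubular tumor were captured with inDrop and libraries followed TruDrop. The submitters' processing notes name mm10, STAR 2.7.3a, Partek and DESeq2 3.5, with no role for each. The values are linear folds (a ratio) and p-values per gene and cluster, as the authors deposited them, per the file headers; neither the test nor any adjustment is stated in the sources used here. Columns with values of single samples number 0, so there is no replicate and no test, and 1 library per tumor type. Genes were called raised at a fold from 2 upward with p up to 0.05.

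The members and the 48 gene lists (833 genes, 714 of them named) were chosen with earlier results of these data known. Unlisted members counted as under 1.5 in the medians. Named were the label's genes, the 30 largest folds (without ribosomal, mitochondrial and predicted genes), the 20 first in order and list members; Dap, Fam222b, Cd34, C1rb, C1s2, the antisense genes and the genes of the closing observations were chosen after their values were seen. Annotation was GENCODE M21 on GRCm38, matching 17925 of 18319 names (97.8%); promoters were from RefSeq (GRCm38.p6), with 12332 names matched by symbol, and a gene counted as holding a motif if any of its starts did. The calling step was tested on simulated data. Python 3.11.15 and pandas 2.3.3 were used. Some genes of the lists are counted but not reported here by name. Alternatives were other thresholds of fold and p and other sets of names.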

Additional observations from a re-analysis of the deposited data

How the results depend on the processing

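The count of raised genes in cluster 11, 3112, stayed between 2264 and 3765 under a fold of at least 1.5 or 3, a p of at most 0.01, no limit on p, names matched to the annotation, and the removal of ribosomal, mitochondrial and predicted genes. The count of those with their largest fold in cluster 11, 1793, stayed between 1493 and 1948. At a fold of at least 10 the counts became 772 and 769, by construction. Of the 38 lists with a raised member, 15 kept a count within 1.5 times at that fold and 36 at a fold of at least 3 or 1.5. The exceptions were integrins (2 to 1) and endoplasmic reticulum genes (7 to 4) at 3, and endoplasmic reticulum genes (7 to 11) and adipocyte genes (1 to 2) at 1.5. At a p of at most 0.01, endothelium went from 2 to 1. No paired analysis was possible because the table carries no samples. The depth behind each fold is unknown, and a large fold can come from a reference close to 0.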

Other observations

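Several gene groups chosen after their values were seen were also raised in cluster 11. Imprinted genes, which are expressed from 1 parental copy and are mostly known from fetal growth, had 13 of 25 named members raised. The adaptor Grb10 was at 246.7 and the noncoding RNA Meg3 at 179, followed by Ndn at 97.7, Rian at 77.5 and Rtl1 at 69.2, per the authors' deposited table. Meg3, Rian, Mirg (13.3, per the authors' deposited table) and Rtl1 belong to 1 imprinted domain on chromosome 12. Parental copies were not measured, and an antisense transcript runs across Rtl1. The fetal growth factor Igf2 was not listed in cluster 11 and was raised at 11.9 in cluster 3 of the authors' deposited table. Genes of oxidant defence and production had 9 of 21 raised. The secreted Sod3 was at 394, Gpx7 at 116.5, Gpx8 at 15.03 and Gpx3 at 14.6, per the authors' deposited table, while Sod1, Cat, Gpx1 and Gpx4 were not listed. The oxidant-making Duox1 and Nos2 were at 61.1 and 29.96, per the authors' deposited table.

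Neural adhesion and guidance genes had 16 of 25 named members raised, led by the neurturin receptor Gfra2 at 249.5, Nsg1 at 99.0, Lgi2 at 90.9 and the guidance ligand Slit3 at 87.3, per the authors' deposited table, while the Slit receptors Robo1 and Robo2 were not listed. The list of glial cells had no listed member, as given above. Of 21 genes of the early secretory pathway 16 were raised, with the calcium-binding Rcn3 at 84.6, Fkbp11 at 37.1, Rcn1 at 31.7 and the cargo receptor Surf4 at 9.62, per the authors' deposited table. Acute-phase genes had 7 of 9 named members raised, with the endotoxin-binding Lbp at 102, Saa1 at 22.8 and Lcn2 at 15.4 beside Saa3 and Serpina3n, per the authors' deposited table. The retinoic acid carriers Crabp1 and Crabp2 were at 262 and 10.2, and chemerin (Rarres2) at 76.8, per the authors' deposited table. Regulators outside the lists included Bnc2 at 131, Aebp1 at 114, Irx1 at 47.9 and Emx2 at 47.5, per the authors' deposited table. No test was made on these groups.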
